A study of Mus musculus with 48 samples.

Results

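Dact1, Frmd6, Chac1, Cdk5r1, Sox9, Foxq1 and Hic1 are 7 genes whose array signal dropped more steeply after actinomycin D in fibroblasts without tristetraprolin than in fibroblasts with it. They were picked from earlier results of these same arrays by the difference of the slopes over time (KO minus WT, both log2 per h) and by a KO slope below 0, so their slopes are given here as a description, with no test. The array holds 13 probe sets annotated to these symbols alone, of 45037 probe sets other than controls, and 11 of the 13 were among the 27500 probe sets tested. The question asked of them is whether the steeper KO drop is a faster drop or comes with a WT signal that began near the lower end of the scale.

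Tristetraprolin (TTP), the product of Zfp36, binds AU-rich elements in the 3′ ends of short-lived messenger RNAs and recruits the enzymes that remove the poly(A) tail, after which the RNA is degraded. Loss of TTP is known for slowing the decay of its targets, so transcripts that drop more steeply without it are the opposite case. Actinomycin D blocks transcription, and the signal that remains at later times is read as RNA that has not yet decayed.

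KO cells were fibroblasts with both copies of Zfp36 disrupted (-/-), and WT cells were fibroblasts with both copies intact (+/+), each prepared from littermate embryos of stage E14.5 (whole embryo without head and organs) of a 129/B6 cross of heterozygous parents. By the labels each genotype appears to be 1 line, so Zfp36 and any other difference between the lines cannot be told apart. Both lines were starved of serum (0.5% for 16 h), returned to 10% serum for 90 min and then exposed to actinomycin D, and RNA was taken after 0, 30, 60, 90 and 120 min, with 3 dishes pooled per sample. The sources disagree on the actinomycin D dose, which is 0.5 ug/ml in the sample names, 5 ug/ml in the text of the series and 5 mg/ml in the treatment protocols of the samples. Each of the 10 groups held 5 arrays from 5 experiments on different days, except KO at 0 min (n = 4, no replicate 5) and KO at 60 min (n = 4, no replicate 4), 48 arrays in all.

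Array medians lay between 8.47 and 8.56 log2, and the 5th percentiles between 8.02 and 8.13. The highest of these, 8.13, is called the floor below, because values there carry little or no signal. Shares and linear units above the floor, and subtractions of the floor, used each array's own 5th percentile instead. The probe set of Zfp36, which does not check the genotype because its place relative to the disruption is not given, read 9.51 ± 0.16 in KO (SD, n = 4) and 9.86 ± 0.16 in WT (SD, n = 5) at 0 min. Of 12 fibroblast markers, 11 were tested and Thy1 lay at the floor (8.08 in KO, 8.12 in WT), while Col1a1 (12.18 in KO, 12.15 in WT) and Vim (13.07 in KO, 13.24 in WT) were bright. The lines differed in other markers: Pdgfra averaged 10.22 in KO and 8.92 in WT, and Postn 9.68 in KO and 11.54 in WT. Of the 11 tested, 4 were higher and 5 lower in KO in mean level by limma, where 27.3% of all tested probe sets were higher and 25.6% lower. Fewer expressing cells and less RNA per cell cannot be told apart in these bulk samples.

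**Figure D1:**
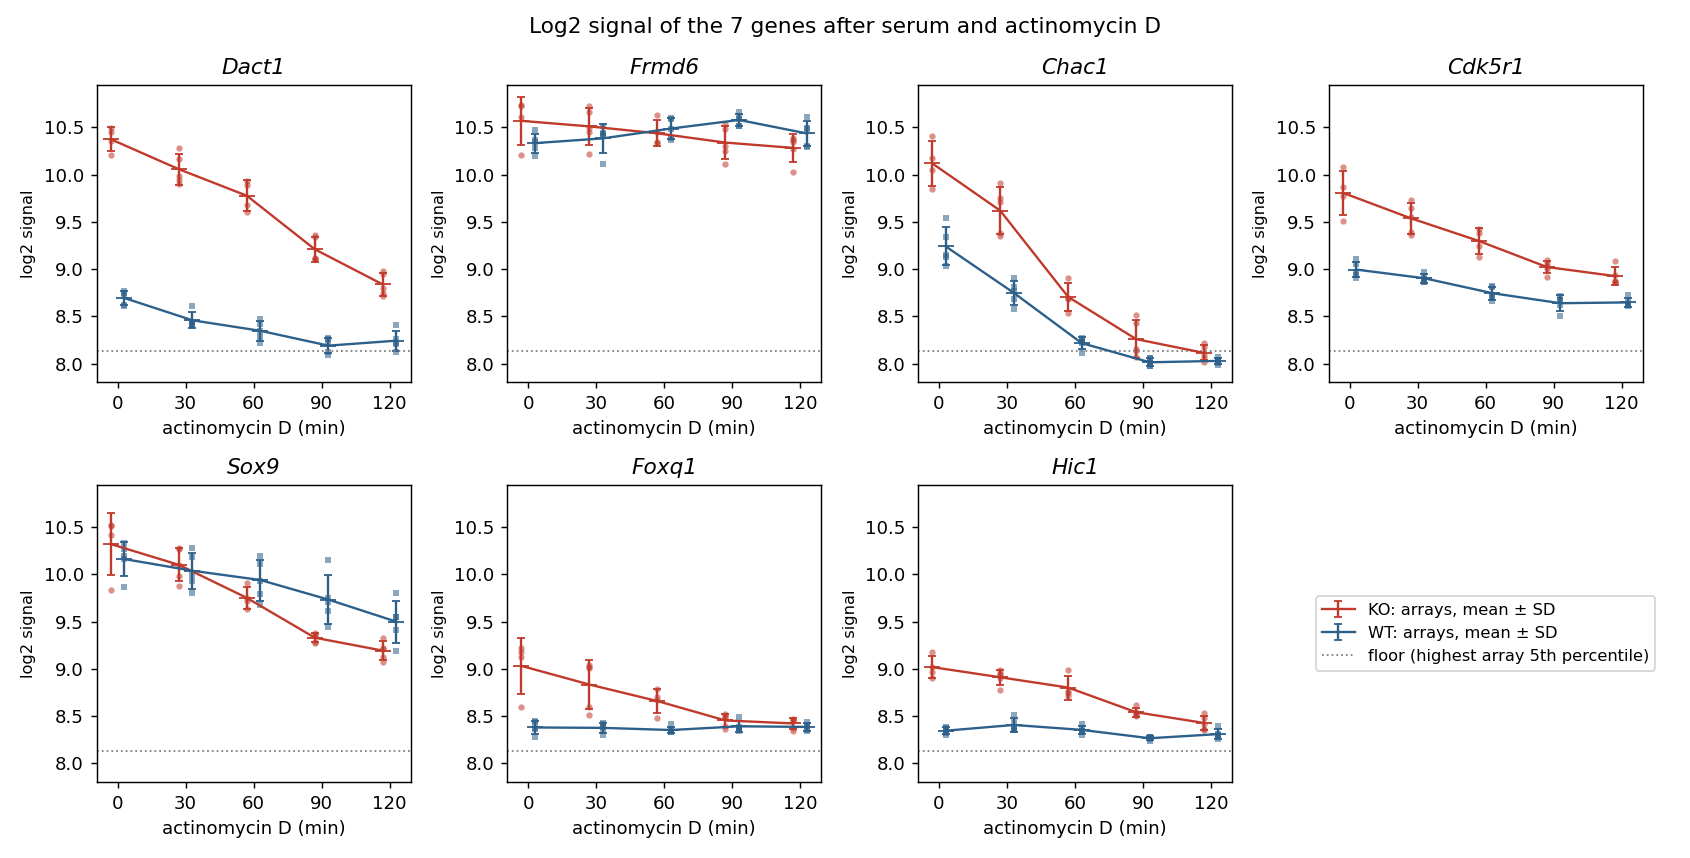
Log2 signal (vertical axis) against minutes of actinomycin D (horizontal axis) for the brightest probe set of each gene, with 1 point per array, lines through the group means and bars of 1 SD (n = 4 or 5; KO in red, WT in blue). The dotted line is the floor of 8.13. Dact1, Chac1, Cdk5r1, Foxq1 and Hic1 began higher in KO than in WT, and Sox9 and Frmd6 began at overlapping signals.

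Dact1 encodes a scaffold protein that binds Dishevelled and tunes Wnt signalling. Its KO arrays at 0 min read 10.49, 10.45, 10.35 and 10.21, and its WT arrays 8.75, 8.77, 8.62, 8.61 and 8.72. Every KO array lay above every WT array at each of the 5 times, which at 0 min held for 9.62% of all tested probe sets (the reverse held for 8.34%). The estimate of the difference at 0 min had a correlation of -0.62 with that of the slope difference that chose the genes. A higher KO start is thus favoured by the choice, and this order of the arrays is a description. At 120 min the KO arrays read 8.95, 8.98, 8.71, 8.80 and 8.75, and the WT arrays 8.26, 8.22, 8.41, 8.12 and 8.20. The KO signal at 120 min, with a mean of 8.84, thus still lay above the WT mean at 0 min of 8.69, so the data hold no KO time that starts from the WT level. The KO signal of Dact1 was 3.21 times that of WT at 0 min and 1.51 times at 120 min.

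The KO slope of Dact1 was -0.79 ± 0.037 log2 per h and the WT slope -0.23 ± 0.035 (SE), a difference of -0.56 ± 0.051. Signal above each array's own 5th percentile made up 80.1% ± 1.8 of the linear signal in KO at 0 min (SD, n = 4) and 36.1% ± 3.9 in WT (SD, n = 5). Of this part, 77.5% ± 6.4 was left at 30 min in KO (n = 4) and 57.8% ± 9.9 in WT (n = 5). At 60 min it was 56.6% ± 6.7 in KO (n = 3) and 40.8% ± 11.7 in WT (n = 5), and at 90 min 31.5% ± 2.6 in KO (n = 4) and 18.4% ± 9.9 in WT (n = 5). By this measure more was left in KO than in WT at 30, 60 and 90 min. At 120 min 19.0% ± 2.7 was left in KO (n = 4) and 24.1% ± 18.9 in WT (n = 5), where WT ran between 10.3% and 57.3% and replicate 3 was the high one. Without replicate 3, left out after the data were seen, the KO share at 120 min was the higher, at 20.3% ± 0.95 in KO (n = 3) and 15.7% ± 4.0 in WT (n = 4). The size of the Dact1 slope difference also moved with the floor: with the floor subtracted and an offset of 32 added, the slopes were -1.17 in KO and -0.80 in WT, which are halving times of 51.3 min in KO and 74.6 min in WT, beside 76.0 min in KO and 256 min in WT as deposited.

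The 300-base promoter window of Dact1 (250 bases before the start site and 50 after, RefSeq, GRCm38.p6, chr12:71309634-71309933, plus strand) is shown because it holds 1 match, in capitals, to the core of the cyclic AMP response element, TGACGT, 40 bases before the start.
Dact1: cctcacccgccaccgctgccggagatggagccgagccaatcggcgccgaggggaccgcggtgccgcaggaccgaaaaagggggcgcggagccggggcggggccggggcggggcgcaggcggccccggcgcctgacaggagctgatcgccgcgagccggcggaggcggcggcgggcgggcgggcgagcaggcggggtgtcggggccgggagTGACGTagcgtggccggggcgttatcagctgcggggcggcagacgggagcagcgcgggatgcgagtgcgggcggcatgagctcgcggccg
A match to TGACGT on either strand was present in 7.51% of 32851 promoter windows, and is a description of these letters and not a binding site.

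Of the other Wnt feedback and antagonist genes, 28 of 36 listed were tested. The rule for a faster drop in KO was met by 1, and by 63 of all tested probe sets (0.229%). This was Rnf43, a ligase that removes Wnt receptors, at -0.15 log2 per h, and its mean level was 8.44 in KO and 8.25 in WT, close to the floor. Znrf3, its relative, and Apc, which promotes the breakdown of beta-catenin, were slower in KO (0.14 and 0.17 log2 per h), as were 0.724% of all probe sets. In mean level over the 5 times, 12 of the 28 were higher in KO and 9 lower, where 27.3% of all tested probe sets were higher and 25.6% lower, and the median difference was 0.012 log2, beside -0.0059 over all probe sets. Notum, which inactivates Wnt proteins, was 0.87 ± 0.055 higher (SE, limma adjusted p = 2.9e-18). Cxxc5, an inhibitor of Dishevelled, was lower in KO (-0.33 ± 0.050, adjusted p = 3.3e-07), and Dvl1 and Dvl2, which encode Dishevelled proteins, were 0.29 and 0.27 higher.

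Frmd6 encodes a FERM-domain protein at the cell membrane that is placed upstream of the Hippo kinases. It had the highest signal of the 7 and the most room above the floor. The KO arrays at 0 min read 10.74, 10.73, 10.61 and 10.20, and the WT arrays 10.20, 10.28, 10.35, 10.37 and 10.47, with KO replicate 4 at the bottom of the WT range. At 120 min the KO arrays read 10.37, 10.35, 10.39, 10.03 and 10.28, and the WT arrays 10.29, 10.61, 10.49, 10.31 and 10.48. The groups overlapped at all 5 times. The KO slope was -0.15 ± 0.043 log2 per h and the WT slope 0.080 ± 0.041 (SE), so the WT signal did not drop against the array average. Of the signal above the floor, 78.8% ± 6.8 was left at 120 min in KO (n = 4) and 109% ± 14.1 in WT (n = 5). These ranges did not overlap (72.5% to 85.6% in KO and 94.2% to 131% in WT). The values at 0 and 120 min also entered the choice, so this is a description, and no count over all probe sets was taken. Floor subtraction left the difference close to its size, at -0.27 ± 0.072 beside -0.23 ± 0.059.

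In the Hippo list 28 of 31 genes were tested. None was faster in KO by limma, with 0 also at an unadjusted p under 0.05, and 1 was slower, Ankrd1, a target of the pathway (0.32 log2 per h). Mean levels were higher in KO for 11 of the 28 and lower for 8, against 27.3% and 25.6% of all tested probe sets, with a median difference of 0.012 log2. Vgll3, a cofactor of TEAD factors, was 0.73 ± 0.042 higher (adjusted p = 1.21e-19), and Ccn2, a secreted target of YAP, was 0.53 log2 lower in KO (-0.53 ± 0.084, adjusted p = 4.78e-07). The kinase gene Stk4 was 0.46 higher, and Ankrd1 differed by -0.37.

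Chac1 encodes an enzyme that breaks down glutathione and is known as a target of the transcription factors ATF4 and CHOP in the response to stress in the endoplasmic reticulum or to amino acid shortage. Its KO arrays at 0 min read 10.05, 9.84, 10.18 and 10.41, and its WT arrays 9.15, 9.04, 9.13, 9.35 and 9.54. At 60 min the KO arrays read 8.70, 8.54, 8.68 and 8.91, and the WT arrays 8.11, 8.22, 8.27, 8.23 and 8.24. At 120 min the KO arrays read 8.02, 8.06, 8.10, 8.21 and 8.17, and the WT arrays 8.01, 8.07, 7.98, 8.04 and 8.04. The groups were separate up to 90 min, with KO the higher, which at 0 min held for 9.62% of all tested probe sets and is favoured by the choice. They overlapped at 120 min, where both means lay under the floor. WT was there by 90 min, when its arrays read between 7.97 and 8.06.

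The KO slope of Chac1 was -1.07 ± 0.065 log2 per h and the WT slope -0.63 ± 0.062 (SE). Over the first 30 min the share of signal above the floor that was left was 59.5% ± 8.0 in KO (n = 4) and 49.2% ± 13.2 in WT (n = 5), and at 60 min 16.8% ± 1.0 in KO (n = 3) and 9.98% ± 4.1 in WT (n = 5). The lower shares were thus those of WT. KO had passed the WT starting level of 9.24 by 60 min, when it was already lower, at 8.71. Over the next 30 and 60 min it changed by -0.45 and -0.59, while WT changed by -0.49 and -1.02 over the same lengths from 0 min. The KO interval began nearer to the floor than that of WT, so these changes are not from equal levels. With the floor subtracted (offset 32), halving times were 25.6 min in KO and 31.2 min in WT, beside 56.1 min in KO and 94.95 min in WT as deposited.

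The promoter window of Chac1 (RefSeq, GRCm38.p6, chr2:119350992-119351291, plus strand) is shown because it holds 2 matches, in capitals, to TGANGCAA, the composite element that factors of the ATF and C/EBP families bind. The first is at base 1 of the window, 250 bases before the start site, and the second is on the minus strand at base 58, 193 bases before it.
Chac1: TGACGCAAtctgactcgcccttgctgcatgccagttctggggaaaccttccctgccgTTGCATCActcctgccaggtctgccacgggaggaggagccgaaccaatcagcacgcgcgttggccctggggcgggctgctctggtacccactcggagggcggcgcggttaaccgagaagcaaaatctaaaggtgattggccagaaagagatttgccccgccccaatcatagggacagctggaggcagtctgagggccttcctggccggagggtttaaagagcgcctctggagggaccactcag
At least 1 match to TGANGCAA on either strand was present in 3.69% of the 32851 windows, and 2 or more in 0.125%. Windows were matched for 4 of the 7 genes (Chac1, Dact1, Frmd6 and Hic1, with 5 windows), and those of Frmd6 and Hic1 held neither motif.

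All 20 genes of the ATF4 and CHOP list were tested. None met the rule for a faster or a slower drop in KO by limma (2 and 3 at an unadjusted p under 0.05), against 0.229% and 0.724% of all probe sets, and with the replicate number as a block 1 did in each direction (Atf3 faster, Atf4 slower). Their mean levels leaned to 1 side: 18 of 20 were higher in KO and 1 lower, where 27.3% of all tested probe sets were higher and 25.6% lower. Their median difference was 0.20 log2, beside -0.0059 over all. Vldlr, a lipoprotein receptor, was 1.49 ± 0.065 higher (adjusted p = 6.09e-24), Asns, the asparagine synthetase, 0.73 ± 0.077 (adjusted p = 3.52e-11), and Ppp1r15a, which restarts translation after stress, 0.55 ± 0.034 (adjusted p = 9.3e-19). Nupr1, a stress-induced chromatin protein, was the 1 lower in KO (-0.47 ± 0.060, adjusted p = 5.16e-09).

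Cdk5r1 encodes p35, the short-lived activator of the kinase CDK5, best known in neurons. Its brightest probe set read 10.08, 9.87, 9.78 and 9.51 in KO at 0 min and 9.06, 8.94, 9.10, 8.91 and 8.97 in WT. At 120 min it read 9.09, 8.87, 8.94, 8.86 and 8.88 in KO and 8.72, 8.63, 8.63, 8.61 and 8.65 in WT. Every KO array lay above every WT array at all 5 times, which at 0 min held for 9.62% of all tested probe sets. A higher KO start is favoured by the choice, so this order is a description. The KO slope was -0.45 ± 0.033 log2 per h and the WT slope -0.19 ± 0.031 (SE). Of the signal above the floor, 36.5% ± 5.6 was left at 120 min in KO (n = 4) and 53.9% ± 5.1 in WT (n = 5), with ranges of 30.3% to 43.6% in KO and 45.7% to 58.5% in WT. The lower share was that of KO, and the ranges did not overlap. These values also entered the choice, so this too is a description, and no count over all probe sets was taken. KO reached the WT starting level at 120 min, so no later interval could be matched.

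A second probe set of Cdk5r1 had a slope difference of -0.21 ± 0.036 and shares at 120 min of 47.0% ± 9.0 in KO (n = 4) and 70.9% ± 10.8 in WT (n = 5). This one reached its WT starting level of 9.01 by 90 min in KO, at 8.96, and over the next 30 min it changed by -0.039, while WT changed by -0.074 over its first 30 min. Neither change exceeded the larger SD of its arrays, 0.064 in KO at 120 min and 0.080 in WT at 0 min. Which line dropped more over that matched interval can thus not be read. The other 2 probe sets lay at 8.18 to 8.57 in KO and 8.14 to 8.61 in WT over all arrays, above their array's median in 2 and 3 arrays, and were not tested. Of 10 listed partners of CDK5, 8 were tested, and none was faster or slower in KO by limma, with 0 also at an unadjusted p under 0.05. Cdk5 itself was 0.38 ± 0.026 log2 higher in mean level in KO (adjusted p = 7.56e-17), and Cdk5rap1 was 0.16 higher. In all 5 of the 8 were higher and 1, Ccnd1, lower (-0.16), against 27.3% and 25.6% of all tested probe sets. Of 5 neural markers 4 were tested, with 1 higher in KO, Tubb3 (9.76 in KO, 8.91 in WT), and 1 lower, Map2 (10.11 in KO, 10.31 in WT). The 5 averaged between 8.41 and 10.11 in KO and between 8.41 and 10.31 in WT, their log2 signals summed to 45.5 in KO and 44.9 in WT, and their part in the Cdk5r1 result was not tested.

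Sox9, the transcription factor that directs cartilage formation, is the other gene that began well above the floor in both lines. Its brightest probe set read 10.53, 10.51, 9.83 and 10.41 in KO at 0 min, where replicate 3 was low, and 10.27, 9.87, 10.33, 10.19 and 10.16 in WT. At 90 min the KO arrays read 9.29, 9.27, 9.38, 9.34 and 9.36 and the WT arrays 10.16, 9.75, 9.71, 9.44 and 9.61, with no overlap and KO the lower. At 120 min the KO arrays read 9.33, 9.21, 9.22, 9.12 and 9.08 and the WT arrays 9.55, 9.54, 9.80, 9.19 and 9.41, which overlap. The lines thus began together and parted later, with KO the lower. The order at 90 min uses values that entered the choice and is a description, and no count over all probe sets was taken at that time.

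The KO slope of Sox9 was -0.61 ± 0.054 log2 per h and the WT slope -0.33 ± 0.052 (SE), and the difference of -0.28 ± 0.075 is the member value nearest to the limit of the rule. Just inside the limit over all probe sets was Spin2c (-0.093 ± 0.025), and just outside were Flrt2 (-0.12 ± 0.031) and Clip1 (-0.13 ± 0.035). Of the Sox9 signal above the floor, 34.5% ± 11.9 was left at 120 min in KO (n = 4) and 52.7% ± 13.9 in WT (n = 5). Without replicate 3 the shares were 28.6% ± 2.5 in KO (n = 3) and 50.5% ± 15.0 in WT (n = 4). KO passed the WT starting level at 30 min (10.10 in KO, 10.16 in WT at 0 min). Over the next 30, 60 and 90 min it changed by -0.35, -0.77 and -0.91, while WT changed by -0.12, -0.22 and -0.43 over the same lengths from 0 min. These intervals began at different times of actinomycin D. From 30 to 60, 60 to 90 and 90 to 120 min KO changed by -0.35, -0.42 and -0.14, and WT by -0.099, -0.21 and -0.23. In the last of these intervals WT thus changed more.

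The other 2 probe sets of Sox9 did not meet the rule. One had slopes of -0.64 in KO and -0.39 in WT, a difference of -0.25 ± 0.080. Its KO arrays were all under its WT arrays at 90 and at 120 min, which is also a description. The other had slopes of -0.30 in KO and -0.24 in WT, a difference of -0.063 ± 0.045, with KO below WT in 4 of 5 experiments. It began at 9.51 in both lines. At 120 min its shares left were 51.4% ± 3.6 in KO (n = 4) and 56.5% ± 7.5 in WT (n = 5). Those of the former were 24.5% ± 5.6 in KO (n = 4) and 44.0% ± 12.5 in WT (n = 5). The probe sets of Sox9 thus disagree on the size, and in 1 the difference was small against its error. Cartilage markers lay near the floor: 10 on the array averaged between 8.23 and 8.62 in KO and between 8.28 and 8.70 in WT, with Col2a1 at 8.62 in KO and 8.70 in WT and Acan at 8.44 in KO and 8.47 in WT. Their log2 signals summed to 84.3 in KO and 84.7 in WT. Of the 10, 6 were tested, with 0 higher and 3 lower in KO in mean level, against 27.3% and 25.6% of all tested probe sets. Of 15 other SOX genes 11 were tested by limma, with none faster or slower in KO, and 0 also at an unadjusted p under 0.05. In mean level 1 of the 11, Sox4, was higher in KO (0.30 ± 0.053) and 1, Sox15, lower (-0.053 ± 0.021), against 27.3% and 25.6% of all tested probe sets.

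Foxq1, a forkhead transcription factor, is carried by 2 probe sets that both met the rule. The brighter read 9.22, 9.18, 9.13 and 8.59 in KO at 0 min and 8.44, 8.36, 8.44, 8.28 and 8.37 in WT. At 120 min it read 8.46, 8.47, 8.46, 8.35 and 8.38 in KO and 8.34, 8.44, 8.40, 8.39 and 8.35 in WT. KO came down to the WT level, while the WT arrays stayed between 8.28 and 8.49 at all times, so a WT drop could not be seen. Experiments 4 and 5 were lower in KO: their arrays at 30 min read 8.52 and 8.59, against 9.04, 9.01 and 9.02 in experiments 1 to 3. The slope was -0.32 ± 0.036 in KO and 0.0057 ± 0.035 in WT (SE). Only 20.6% of the WT signal lay above the floor at 0 min, against 48.7% in KO. The dimmer probe set read at most 8.22 in WT at any time, at or near the floor, and gave no usable WT share.

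In the forkhead list 20 of 28 genes were tested. Foxf1, a factor of mesenchyme, met the rule for a faster drop in KO (-0.25 log2 per h) and Foxd1, a factor of kidney stroma, that for a slower one (0.29), and with the replicate block Foxc2 was faster too, which makes 2. Mean levels were higher in KO for 11 of the 20 and lower for 3, against 27.3% and 25.6% of all tested probe sets, with a median difference of 0.083 log2. Foxd1 averaged 8.57 in KO and 9.79 in WT (-1.22 ± 0.030, adjusted p = 1.19e-33). Foxf1 averaged 9.11 in KO and 8.37 in WT (0.76 ± 0.036, adjusted p = 1.16e-22), and Foxc2 and Foxo3 were 0.73 and 0.47 higher, so the forkhead genes that moved in slope were also those whose levels differed most between the lines.

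Hic1, a zinc finger repressor known as a target of p53 and a tumour suppressor, was the dimmest at the start. It read 9.02, 9.18, 8.91 and 8.97 in KO at 0 min and 8.38, 8.32, 8.35, 8.30 and 8.39 in WT. At 120 min it read 8.53, 8.48, 8.37, 8.42 and 8.35 in KO and 8.39, 8.29, 8.31, 8.30 and 8.25 in WT. The groups were separate up to 90 min, with KO the higher, and overlapped at 120 min. At 0 min such an order held for 9.62% of all tested probe sets, and it is favoured by the choice. The KO slope was -0.31 ± 0.022 log2 per h and the WT slope -0.043 ± 0.021 (SE). Signal above the floor was 49.0% of the KO signal and 18.7% of the WT signal at 0 min, and 34.1% ± 5.1 of it was left at 120 min in KO (n = 4) and 80.0% ± 13.9 in WT (n = 5). The WT share rests on 60.9 linear units above the floor at 0 min, against 256 in KO, so it says little about the speed of a WT drop. The KO mean at 120 min, 8.43, still lay above the WT mean at 0 min, 8.35, so no KO time starts from the WT level. Of 13 listed BTB zinc finger genes and HIC1 partners 12 were tested by limma, with none faster in KO (0 also at an unadjusted p under 0.05) and 1 slower, Sirt1, a deacetylase gene that HIC1 represses (0.15 log2 per h). Ctbp1, a corepressor that HIC1 binds, was 0.35 ± 0.030 higher in mean level in KO, Ctbp2 and Zbtb33 were 0.20 and 0.16 higher, and Zbtb4 was lower (-0.27 ± 0.028). In all 6 of the 12 were higher and 2 lower, against the same background of 27.3% and 25.6%.

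**Figure D2:**
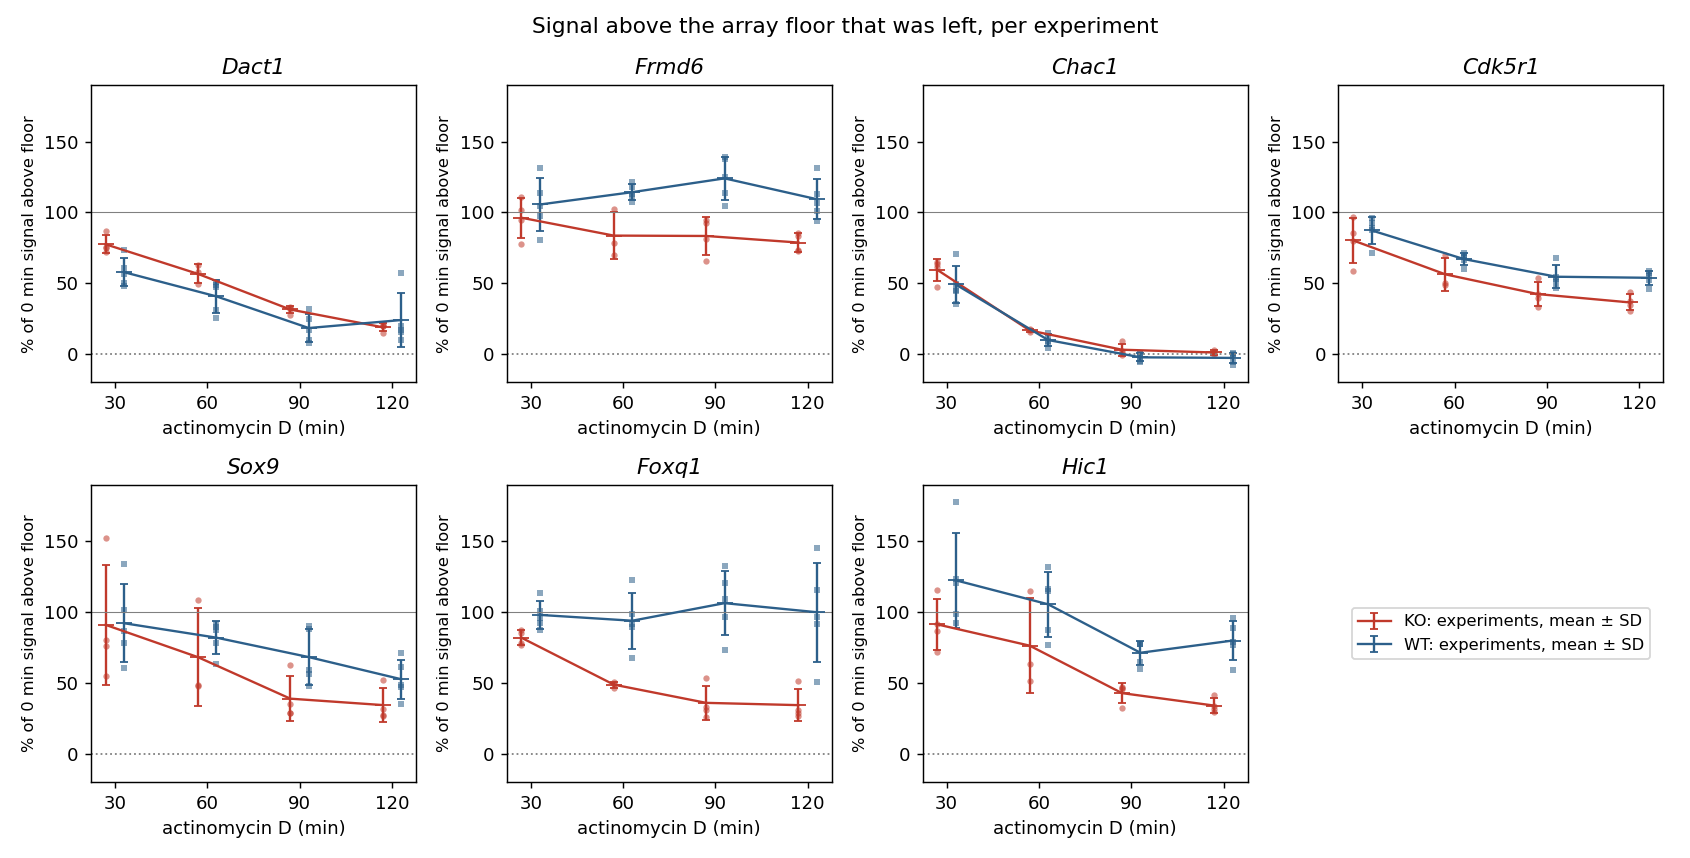
Share of the 0 min signal above the floor that was left (vertical axis, percent of the same experiment's 0 min value) at 30 to 120 min of actinomycin D, with 1 point per experiment and bars of 1 SD (KO in red, WT in blue). At 30 min the KO means lie above the WT means for Dact1 and Chac1 and below them for the other genes. At 120 min the KO means lie below the WT means for Cdk5r1, Sox9, Frmd6, Foxq1, Hic1 and Dact1. The Dact1 means there are 19.0% in KO and 24.1% in WT, with WT replicate 3 high at 57.3%. For Chac1 the KO mean at 120 min is the higher, 1.17% in KO and -2.65% in WT.

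Set side by side, the genes fall into 3 kinds by their WT start, a grouping made after the values were seen. Sox9 and Frmd6 began with most of their signal above the floor in both lines, 78.9% and 82.4% in KO and 76.8% and 79.5% in WT. Cdk5r1 and Chac1 began with 70.2% and 76.0% in KO and 48.1% and 56.0% in WT. Dact1, Foxq1 and Hic1 began with 80.1%, 48.7% and 49.0% in KO and 36.1%, 20.6% and 18.7% in WT.

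The slope difference kept its sign in every processing tried, but the rule itself was not always met. These counts apply the rule again to the slopes that chose the genes, so they describe the processing and support nothing about the genes. With the floor subtracted (offset 32) it was met by 4 of the 7 (Cdk5r1, Sox9, Foxq1 and Hic1), at an offset of 16 by 3 (Sox9, Foxq1 and Hic1) and at 64 by 5 (these 3, Dact1 and Cdk5r1). Subtraction of each array's 25th percentile, added after the data were seen, left Sox9, Foxq1 and Hic1. The differences of Sox9, Foxq1 and Hic1 moved away from 0, to -0.40 ± 0.10, -0.71 ± 0.11 and -0.53 ± 0.080 at an offset of 32. Of these 3, Sox9 alone had a WT slope clearly below 0 as deposited. Frmd6 missed the rule after each subtraction although its difference moved little.

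**Figure D3:**
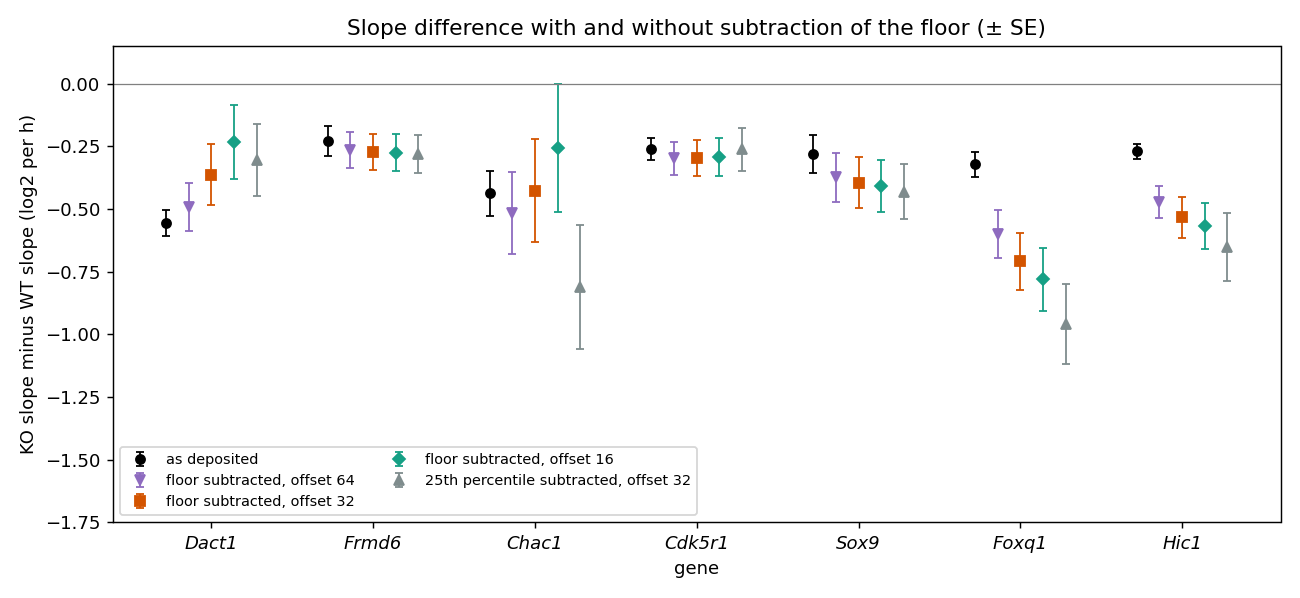
KO minus WT slope (log2 per h, ± SE) of the 7 genes as deposited and with the array floor subtracted before the logarithm at 3 offsets, or with the 25th percentile subtracted. The Dact1 value moves toward 0 with subtraction, -0.36 ± 0.12 at an offset of 32, and those of Foxq1 and Hic1 move away from it.

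Slopes fitted to each experiment alone showed the same order. Every KO slope lay below every WT slope for 6 of the 7 brightest probe sets, which over all probe sets held for 0.815% (the reverse held for 1.89%). This uses the contrast that chose the genes and is given as a description. The exception was Sox9, where KO lay below WT in 5 of 5 experiments with overlapping ranges (-0.72 to -0.42 in KO and -0.50 to -0.22 in WT). Dact1 ran from -0.83 to -0.72 in KO, against -0.29 to -0.12 in WT. Foxq1 was split in KO, with -0.13 and -0.15 in experiments 4 and 5 and between -0.42 and -0.37 in the others.

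**Figure D4:**
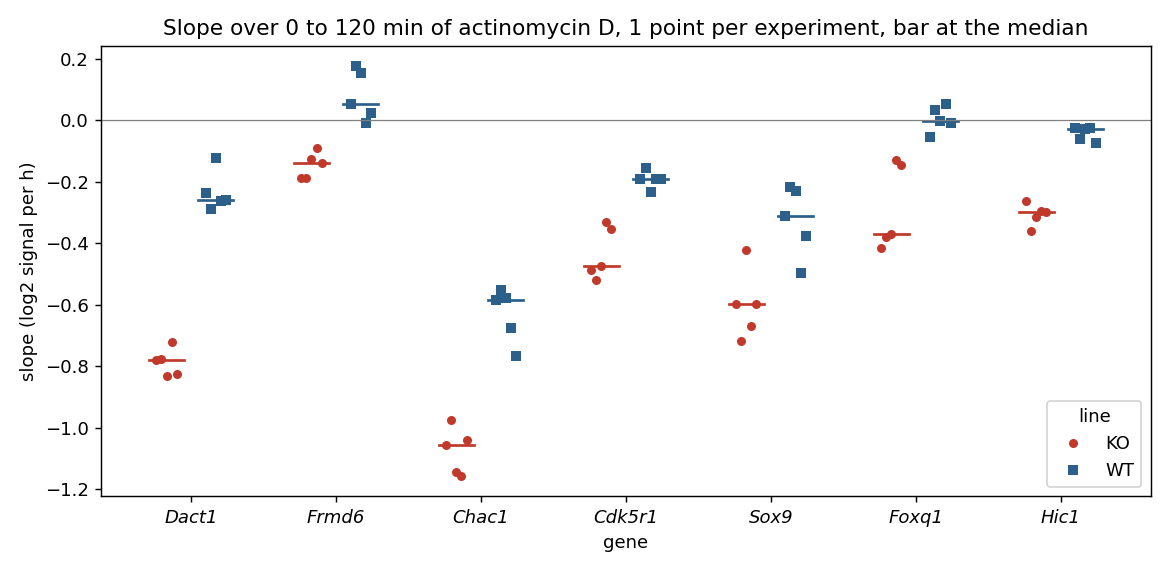
Slope of log2 signal on time (log2 per h) for each experiment, KO in red to the left of WT in blue, with a bar at the median of 5 experiments. The KO and WT points are separate for each gene but Sox9.

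Tests are given on measures other than the slopes of the choice, taken from the same arrays: the mean level over the 5 times and the bend of the time course. The estimate of the mean level difference had a correlation of -0.032 with that of the slope difference, and that of each bend 0. The difference at 0 min, with a correlation of -0.62, was not tested. A mean level still holds the drop itself. Among the 63 probe sets faster in KO 60 were also higher in mean level, beside 27.3% of all tested probe sets. A higher KO level is thus favoured by the choice. The level differences below describe the chosen genes, and their p-values are not independent of the choice. Dact1 was 1.27 ± 0.033 log2 higher in KO (limma adjusted p = 1.57e-32), Cdk5r1 0.53 ± 0.032 (adjusted p = 3.67e-19) and Chac1 0.51 ± 0.043 (adjusted p = 2.68e-14).

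Foxq1 and Hic1 passed the filter on low values through their KO arrays: Foxq1 exceeded the array median on 15 of 23 KO arrays and 0 of 25 WT arrays, and Hic1 on 19 KO arrays and 1 WT array. Because such a filter favours a higher KO level, their tests are given from the limma fit without it, over all 45037 probe sets. There Hic1 was 0.40 ± 0.020 higher in KO (adjusted p = 4.78e-22) and Foxq1 0.30 ± 0.037 higher (adjusted p = 2e-09). Within experiments 1 to 3 the Foxq1 difference was 0.38, and within experiments 4 and 5 it was 0.12. Dact1 exceeded the median on 23 KO arrays and 6 WT arrays, and Chac1 on 14 KO arrays and 10 WT arrays.

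Sox9 was lower in KO in mean level, by -0.14 ± 0.055 (adjusted p = 0.0341), and its other probe sets by -0.18 (adjusted p = 0.00377) and -0.070 (adjusted p = 0.0261). This call was lost without replicate 1 (-0.093, adjusted p = 0.197), replicate 3 (-0.10, adjusted p = 0.103) or replicate 5 (-0.14, adjusted p = 0.0598), and in experiments 4 and 5 alone (-0.044, adjusted p = 0.438). Frmd6 did not pass (-0.016 ± 0.043, adjusted p = 0.778). It differed by 0.087 in experiments 1 to 3 (adjusted p = 0.0954) and by -0.22 in experiments 4 and 5 (adjusted p = 0.00125).

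The bend is the mean of the first and last time minus the weighted mean of the middle times, and lies above 0 where a drop is steep first and flat later, as when a signal reaches the floor. Chac1 had a bend in both lines, 0.29 ± 0.066 in KO (adjusted p = 0.00895) and 0.34 ± 0.061 in WT (adjusted p = 0.000361), where 0.767% of all tested probe sets bent this way in KO and 1.29% in WT. After floor subtraction the KO bend of Chac1 was 0.12 at an offset of 32 and no longer past the threshold, and it was lost too without replicate 1 (0.29, adjusted p = 0.119) or 3 (0.28, adjusted p = 0.114). The WT bend of Chac1 was lost at an offset of 16 (0.58, adjusted p = 0.247). The Dact1 bend was -0.099 ± 0.051 in KO (adjusted p = 0.823) and 0.13 ± 0.048 in WT (adjusted p = 0.178), and neither passed. With the replicate block the WT bend of Dact1 passed (0.13, adjusted p = 0.00785), as it did in experiments 4 and 5 alone (0.16, adjusted p = 0.00739), and so did the difference of the bends (-0.23, adjusted p = 0.0270), which without the block was -0.23 ± 0.070 (adjusted p = 0.933). Without the block 0.0327% of all probe sets had a bend difference below 0 and 0.00364% above 0. No bend of the brightest probe sets of Frmd6, Cdk5r1, Sox9, Foxq1 or Hic1 passed as deposited, and 1 dimmer Sox9 probe set had a bend below 0 in WT (-0.15 ± 0.039, adjusted p = 0.0263), as had 0.593% of all probe sets, and 0.0655% in KO.

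**Figure D5:**
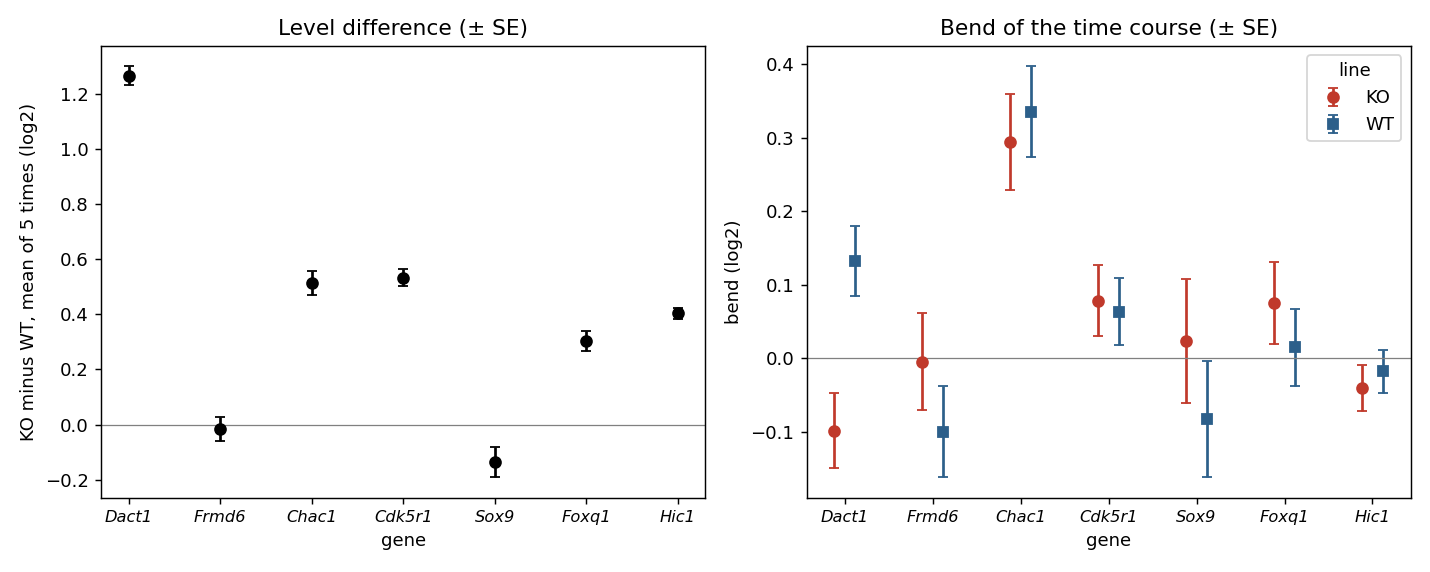
Left, KO minus WT difference of the mean log2 signal over 5 times (± SE) for the 7 genes. Right, bend of the time course (log2, ± SE), KO in red to the left of WT in blue. Dact1 has the largest level difference of the 7, 1.27, and Chac1 is the gene whose bends, 0.29 in KO and 0.34 in WT, passed the test in both lines.

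Across the 10 group means, the time courses most like each member among 13011 other genes were found by Pearson correlation, given as a description over points that share arrays. Chac1 was most like Klf2 and Cbx2 (r = 0.99 each), of which Klf2, an immediate-early transcription factor, itself met the rule for a faster drop in KO. Cdk5r1 was most like Gab2 and Rnd1 (0.99 each), Dact1 like Ccdc120 and Nfatc4 (0.99 each), and Hic1 like Plxna1 (0.99) and Rab23 (0.98), of which Rab23 met the rule. The correlation ignores the size of a drop. In KO from 0 to 120 min Ccdc120 ran from 8.58 to 8.42 and Nfatc4 from 9.39 to 9.18, while Dact1 ran from 10.375 to 8.838. Foxq1 was most like Rnf43 (0.98) and Ccnf (0.98), and Rnf43 met the rule. Sox9 was most like Tnrc18 and Polr1c (0.98 each). Frmd6 had no close match, the nearest being Tmco5 (0.87), whose group means lay between 8.53 and 8.57 at 0 and 120 min, and Serpina7 (0.81), between 8.52 and 8.62.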

How the data were processed

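RNA of the KO and WT fibroblast lines was measured on Affymetrix mouse genome arrays, and the scans were read with GeneChip Operating Software 1.2.0.037, per the labels' protocols. The authors deposited log2 signals, 1 value for each probe set on each array. The probe summary, background correction and normalisation behind these signals are not stated in the labels or the file, and base 2 was taken from their range. The number of arrays limits the precision.

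The 64 control probe sets of 45101 were left out, and 27500 were kept for testing, those that exceeded the array median on 4 or more arrays. Genes were named from the platform annotation, and only probe sets with 1 symbol were used for a named gene (23140 of those tested had 1 symbol, 681 several and 3679 none). Each gene is given by its brightest tested probe set (by the mean of the 48 arrays), and other probe sets of the 7 genes are given beside it. For each gene, the 2 others with the highest correlation over the group means were named, and up to 4 called genes per list, by size of difference.

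All arrays entered each fit, in limma (version 3.58.1, R 4.3.3) with trended and robust empirical Bayes. A line per genotype gave the slopes, and 1 mean per group gave the mean level difference and the bend. A probe set met the rule for faster in KO where the slope difference and the KO slope lay below 0, both at a Benjamini-Hochberg adjusted p under 0.05 over all probe sets tested, and for slower where the WT slope lay below 0 and the difference above it. Tests were two-sided, errors of fitted values are SE, and the fits were checked on simulated data. For the floor, the array's 5th percentile was subtracted from the linear signal, values under 0 were set to 0, and an offset of 32 (or 16 or 64) was added. Shares of signal left were taken within each experiment, above each array's own 5th percentile.

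The genes and the lists were chosen with earlier results of these data known. The series text has both lines run side by side on 5 days, and the replicate number was taken as the day. The main fits did not use this pairing, which entered the tests only with the replicate block. Of 23 KO and WT pairs with the same number, 16 had deviations correlated above 0.1 (range -0.25 to 0.60), and 11 correlated best with their own number. Nothing says that the samples of 1 line came from separate embryos. The main fits took all arrays as independent, although those of 1 line and replicate number come from 1 experiment. Their p-values thus measure the spread of arrays within groups, with the times of an experiment counted as separate, and may be too small. They do not measure the spread between embryos or lines. Alternatives were the replicate block, each replicate left out, other filters, quantile normalisation, floor subtraction, empirical Bayes without trend, experiments 1 to 3 and 4 and 5 apart, and slopes without the first or the last time. Promoter sequences are from RefSeq, GRCm38.p6. Protein and 3′ end sequences were not used here.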

Additional observations from a re-analysis of the deposited data

Results flagged for a closer look

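In 6 of 70 groups of arrays, 1 array lay far from the others of its group by Dixon's test, where chance gives about 1 in 20. The low KO arrays at 0 min were replicate 4 of Foxq1 (8.594, the next at 9.129) and replicate 3 of Sox9 (9.831, the next at 10.415). Without replicate 4 the slope difference of Foxq1 was -0.37, beside -0.32, and without replicate 3 that of Sox9 was -0.31, beside -0.28. In WT, replicate 2 of Dact1 at 30 min was high (8.611), replicate 3 of Frmd6 at 30 min was low (10.117), and replicate 3 of Foxq1 was high at 60 min (8.416) and at 90 min (8.492).

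Of the 127 tested genes listed beside the 7, the slopes of 7 differed between the lines by limma's test of the difference (KO minus WT, log2 per h), 2 faster and 5 slower in KO, where 0.229% of all tested probe sets were faster and 0.724% slower. Rnf43 (-0.149 ± 0.031, adjusted p = 0.00397) and Foxf1 (-0.251 ± 0.054, adjusted p = 0.00581) were faster in KO. Foxd1 (0.290 ± 0.040, adjusted p = 5.18e-06), Ankrd1 (0.316 ± 0.084, adjusted p = 0.0478), Apc (0.167 ± 0.043, adjusted p = 0.0371), Sirt1 (0.145 ± 0.037, adjusted p = 0.0325) and Znrf3 (0.136 ± 0.033, adjusted p = 0.0228) were slower in KO. The 2 faster genes were higher in KO in mean level, by 0.19 for Rnf43 and 0.76 for Foxf1, and Foxd1, which was slower, was lower by -1.22.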

How the results depend on the processing

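The slope differences of the 7 genes kept their sign under all settings tried, and so did the mean level differences of Dact1, Chac1, Cdk5r1, Foxq1, Hic1 and Sox9. Over all probe sets 262 differed in slope (63 faster and 199 slower in KO). With the replicate block this became 461 (96 faster and 365 slower), without 1 replicate 122 to 311 (122 without replicate 1, 146 without replicate 2 and 145 without replicate 4), with subtraction at an offset of 16 it was 172, in experiments 1 to 3 151, in experiments 4 and 5 172, without the 0 min arrays 94 and without the 120 min arrays 56. The rule was met by 5 of the 7 genes without replicate 1, 2 or 5 (Frmd6 and Sox9 dropped out), and by 6 without replicate 3 (no Frmd6) or 4 (no Sox9). It was met by 5 without the 0 min arrays and by 5 without the filter on low values (no Frmd6 or Sox9 in either). Without the 120 min arrays it was met by 4 (no Frmd6, Cdk5r1 or Sox9). In experiments 1 to 3 it was met by 6 (no Sox9), and in experiments 4 and 5 by 3 (Dact1, Foxq1 and Hic1). Bends were called for 229 probe sets in KO and 517 in WT, and their difference for 10. With the replicate block these were 388, 881 and 19, and without 1 replicate 135 to 270, 291 to 499 and 2 to 6. The stricter filter of 24 arrays gave 149 bends in KO, experiments 1 to 3 gave 231 in WT and 5 differences, and experiments 4 and 5 gave 126 in KO and 5 differences. The difference was called for 1 probe set at each offset of 32, 16 and 64 and for 0 after subtraction of the 25th percentile by limma.

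Values that changed sign were uncalled in both settings, apart from the Chac1 bend in KO (-0.022 at an offset of 16). The Frmd6 mean level was 0.087 in experiments 1 to 3 and -0.066 to 0.047 without 1 replicate. In KO the Frmd6 bend was 0.013 with the replicate block, 0.037 in experiments 1 to 3 and -0.072 to 0.055 without 1 replicate. The Sox9 bend in KO was -0.0081, -0.013 and -0.030 after subtraction (offsets 32 and 16, and the 25th percentile) and -0.046 to 0.14 without 1 replicate, and that of Hic1 -0.081 to 0.019. In WT the Foxq1 bend was -0.0020 with quantile normalisation and -0.0091 with the 25th percentile, and that of Hic1 -0.030 to 0.0042 without 1 replicate. The bend difference of Cdk5r1 was -0.016, -0.024 and -0.0032 at offsets of 32, 16 and 64, -0.021 in experiments 4 and 5, -0.038 with the 25th percentile and -0.028 to 0.060 without 1 replicate. Those of Frmd6 (-0.0075) and Foxq1 (-0.0013) changed sign in experiments 4 and 5, and that of Chac1 in experiments 1 to 3 (0.033). Without 1 replicate they ran from -0.0026 to 0.16 for Frmd6, -0.066 to 0.026 for Chac1, -0.0071 to 0.27 for Sox9 and -0.085 to 0.038 for Hic1. The causes were not tested. The block changed no other call named for the 7 genes than the Dact1 bends. Foxq1 and Hic1 have no value at the filter of 24 arrays, which they do not pass, and signals near the floor limit what their WT slopes can show.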
